A study of Mus musculus with 12 samples.

Results

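The genes described here form the calcineurin-NFAT axis of cultured mouse dendritic cells, read at the level of gene counts. The set holds 10 genes, taken by symbol from a table of 37991: Rcan1 and Il2, the NFAT genes Nfatc1, Nfatc2, Nfatc3 and Nfat5, and the calcineurin genes Ppp3ca, Ppp3cb, Ppp3cc and Ppp3r1. All 10 passed the filter on low counts, as did 18981 genes in all.

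RNA was sequenced from dendritic cells grown from bone marrow of C57BL/6 mice, in 4 groups of 3 libraries. Cells of mice with the genotype Vav1/2/3-/-, labelled VAV KO, received curdlan for 3 hours or none, and cells of wild-type (WT) mice received curdlan for 3 hours or none. Vav proteins are guanine nucleotide exchange factors that act below Syk-coupled receptors, and curdlan is a particulate beta-glucan that binds the receptor Dectin-1. Library numbers are 2, 4 and 5 for KO with curdlan, 1, 2 and 5 for KO without, and 1, 2 and 4 for WT in both states. The labels do not say whether libraries of a group came from separate animals or cultures, so every p-value reflects library-to-library spread alone, and this may be technical.

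Calcium that enters a cell through store-operated channels binds calmodulin, which switches on the phosphatase calcineurin. Calcineurin joins a catalytic A subunit (encoded by Ppp3ca, Ppp3cb or Ppp3cc) to a regulatory B subunit (encoded by Ppp3r1), and it strips phosphates from NFATc proteins, which then move into the nucleus. Rcan1 encodes a protein that binds calcineurin and is itself a well-known NFAT target, and Il2 is the classic NFAT target of T cells that dendritic cells also make on contact with microbes. Nfat5 encodes a relative that responds to osmotic stress and is not switched by calcineurin.

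Total counts ran from 41421718 to 61217861 per library. Lanes 8, 6, 7 and 5 of the sequencer each carried 1 group (KO with curdlan, KO without, WT with curdlan, WT without), and lane and group cannot be told apart. No Vav transcript was lower past the threshold in libraries labelled KO. Vav2 lay between 275 and 287 CPM (reads scaled to a common library size) in unstimulated KO libraries, against 65.0 to 70.8 CPM in unstimulated WT libraries. Vav1 lay between 198 and 232 CPM in unstimulated KO libraries, against 131 to 135 CPM in unstimulated WT libraries. Vav3 lay between 31.5 and 40.0 CPM in unstimulated KO libraries, against 21.6 to 28.9 CPM in unstimulated WT libraries (log2 fold change 0.48, adjusted p = 0.0225, edgeR with Benjamini-Hochberg adjustment). With curdlan Vav3 overlapped, at 22.7 to 32.5 CPM in KO and 28.3 to 36.9 CPM in WT. A gene's count pools all of its exons, deleted or not. KO below always means a library so labelled, and each direction between genotypes rests on the labels. Of 8 dendritic cell markers all were detected in each group, with summed levels of 17330 to 22330 CPM in KO with curdlan, 15750 to 19960 in KO without, 9499 to 9992 in WT with curdlan and 9597 to 9792 in WT without. The 5 macrophage markers found in the table were also detected in each group, with sums of 1625 to 1998, 1915 to 2231, 1249 to 1297 and 1242 to 1341 CPM in the same order of groups. The 5 neutrophil markers summed to 3685 to 5471, 3497 to 5504, 2091 to 2527 and 2435 to 3188 CPM in that order. All 3 sums were thus higher in KO than in WT, but the markers within the dendritic cell sum were divided. Cd74, H2-Aa, H2-Ab1 and Cd86 had the higher means in KO in both states, whereas Itgax averaged 787 CPM in unstimulated KO against 1487 in unstimulated WT, and Ccr7 77.1 against 131. With curdlan Itgax averaged 944 CPM in KO against 1336 in WT, Ccr7 109 against 278 and Zbtb46 47.1 against 71.3. The part of these markers in the genotype differences below was not tested. In RNA from whole cultures, fewer cells of a type and less RNA per cell cannot be told apart.

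Rcan1 (ENSMUSG00000022951, GRCm38 chromosome 16, 92391953 to 92470867, minus strand) and Il2 (ENSMUSG00000027720, chromosome 3, 37120523 to 37125959, minus strand) are protein-coding genes that both rose with curdlan, so the bases before their start sites are shown. The sequences are those of RefSeq on GRCm38.p6, read 5′ to 3′ on the gene's strand, and each ends at the base before the annotated start. Capitals mark every match, on either strand, to GGAAA (the NFAT core), TGANTCA (the AP-1 site) or TGACGTCA (the CRE). The first Rcan1 window precedes the inner start, which lies inside longer Rcan1 transcripts, and holds no annotated exon base. The inner start is that of the shorter form of the gene. The outer window is itself spanned by 1 annotated Rcan1 transcript, so the outer start is not the outermost of the gene. No window is shown for the start of that longer transcript.
Rcan1 inner start (chr16:92400079-92400328, minus strand): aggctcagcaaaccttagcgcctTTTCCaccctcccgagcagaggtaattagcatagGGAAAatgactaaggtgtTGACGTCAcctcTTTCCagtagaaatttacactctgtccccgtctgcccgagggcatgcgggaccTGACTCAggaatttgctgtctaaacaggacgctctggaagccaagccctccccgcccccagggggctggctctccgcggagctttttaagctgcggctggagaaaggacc
Rcan1 outer start (chr16:92466170-92466419, minus strand): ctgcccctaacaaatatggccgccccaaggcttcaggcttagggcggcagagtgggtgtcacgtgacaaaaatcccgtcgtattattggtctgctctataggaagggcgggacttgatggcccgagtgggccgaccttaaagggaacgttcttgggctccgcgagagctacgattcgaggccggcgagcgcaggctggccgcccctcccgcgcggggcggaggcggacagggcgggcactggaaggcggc
Il2 (chr3:37125955-37126204, minus strand): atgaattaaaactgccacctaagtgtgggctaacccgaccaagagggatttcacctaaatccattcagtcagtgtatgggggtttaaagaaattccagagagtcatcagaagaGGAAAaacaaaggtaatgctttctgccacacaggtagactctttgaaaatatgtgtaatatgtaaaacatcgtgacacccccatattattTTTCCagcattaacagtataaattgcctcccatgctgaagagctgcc

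The inner Rcan1 window held 3 matches to GGAAA, which begin 227, 193 and 163 bases before the start, 1 to TGACGTCA 175 bases before it, and 1 to TGANTCA 110 bases before it, none overlapping another. The outer Rcan1 window held no match to any of them, and the Il2 window held 2 to GGAAA, at 137 and 47 bases. Among 32851 windows of the same length, 55.6% held GGAAA at least once, 21.4% at least 2 times and 6.39% at least 3 times. TGANTCA was in 6.75% and TGACGTCA in 1.55%, and 10 windows (0.0304%) held all 3 motifs. GGAAA contains the GGAA core that ETS factors also bind. A match of letters is not a binding site, and the counts here are per gene, so reads from the inner and outer Rcan1 starts were not separated. Windows were available for 7 of the 10 genes.

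Curdlan raised Rcan1 far more than any other gene of the axis, in both genotypes. Rcan1 stood at 167, 153 and 318 CPM in KO libraries 2, 4 and 5 with curdlan, against 12.9, 11.9 and 13.6 CPM in KO libraries 1, 2 and 5 without it. In WT it stood at 88.8, 78.8 and 87.0 CPM in libraries 1, 2 and 4 with curdlan, against 11.8, 12.4 and 10.4 CPM in the same numbers without it. The groups with and without curdlan did not overlap in either genotype, and KO library 5 with curdlan stood far above the other libraries of its group. By edgeR's quasi-likelihood F-test, Rcan1 had log2 fold changes of 4.06 in KO (SE 0.24, adjusted p = 1.01e-06) and 2.88 in WT (SE 0.23, adjusted p = 4.83e-06), Benjamini-Hochberg adjusted over all tested genes. A gene passed where that adjusted p was under 0.05. Without KO library 5 the KO value was 3.64 and still passed.

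**Figure D1:**
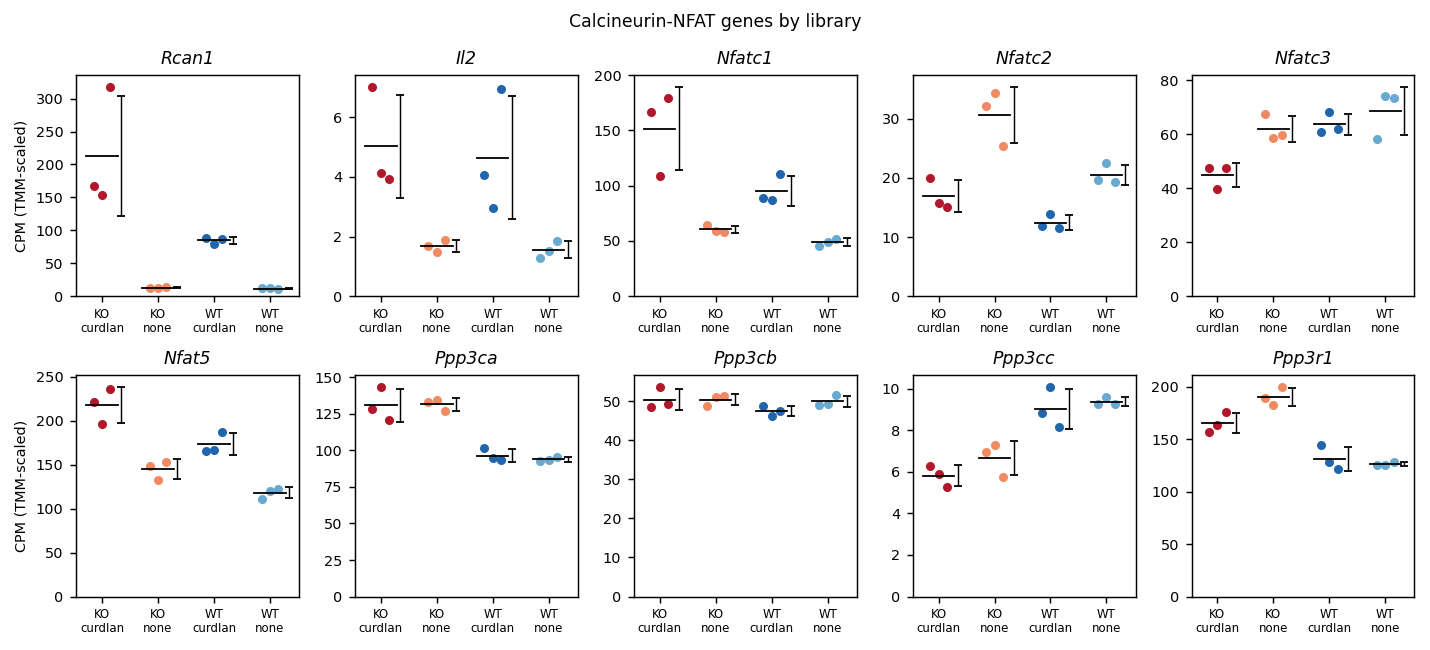
Level of each of the 10 genes in CPM (vertical axis, from 0) in the 3 libraries of each group, with KO curdlan, KO without, WT curdlan and WT without from left to right. Points are libraries, horizontal lines are means and bars are SD, and Rcan1 lies at 153 to 318 CPM in KO with curdlan, above 78.8 to 88.8 CPM in WT with curdlan.

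Il2, which encodes the T cell growth factor interleukin-2, was a low transcript that rose by a similar factor in both genotypes. It measured 7.01, 4.15 and 3.92 CPM in KO libraries 2, 4 and 5 with curdlan, against 1.69, 1.49 and 1.88 CPM in KO libraries 1, 2 and 5 without it. In WT libraries 1, 2 and 4 it measured 4.06, 2.94 and 6.93 CPM with curdlan, against 1.30, 1.53 and 1.85 CPM without it. The groups did not overlap, and 1 library of each curdlan group (KO 2 and WT 4) stood above the others. The log2 fold change was 1.57 in KO (SE 0.31, adjusted p = 0.00277) and 1.58 in WT (SE 0.30, adjusted p = 0.00314) by edgeR with Benjamini-Hochberg adjustment. The difference of the responses was -0.01, with an interval of 2 SE on each side from -0.85 to 0.84. Summed over the 3 libraries of a group, Il2 had 616 reads in KO with curdlan, 250 in KO without, 712 in WT with curdlan and 290 in WT without. The T cell receptor gene Cd3e had 0, 1, 4 and 5 reads in the same groups.

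The other lineages known to make Il2 were checked by their markers. The 11 T cell markers summed to 15.1 to 15.9 CPM in KO with curdlan, 13.4 to 13.7 in KO without, 11.9 to 12.3 in WT with curdlan and 9.46 to 12.1 in WT without. The 4 NK cell markers stayed under 0.82 CPM in sum in every library, with Gzma at 0 reads in all 4 groups. The 6 mast cell and basophil markers summed to 67.8 to 73.6 CPM in KO with curdlan, 54.2 to 86.5 in KO without, 20.8 to 23.1 in WT with curdlan and 20.1 to 21.4 in WT without, with the mast cell protease gene Mcpt4 at 0 reads. The other mast cell and basophil markers had higher means in KO than in WT in both states, although Kit overlapped without curdlan. Cpa3 averaged 25.15 CPM in KO with curdlan against 5.49 in WT, and 36.3 against 6.73 without it. The part of T cells, NK cells, mast cells and basophils in the Il2 level was not tested.

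Among the NFAT genes, Nfatc1 and Nfat5 rose with curdlan and Nfatc2 fell, in both genotypes. Nfatc1 (ENSMUSG00000033016, chromosome 18, minus strand), which encodes NFAT2, measured 166, 109 and 180 CPM in KO libraries 2, 4 and 5 with curdlan, against 64.1, 59.0 and 58.0 CPM in KO libraries 1, 2 and 5 without it. In WT libraries 1, 2 and 4 it measured 88.6, 86.7 and 111 CPM with curdlan, against 45.1, 49.0 and 52.1 CPM without it. All curdlan libraries lay above all libraries without it in each genotype. The log2 fold change was 1.33 in KO (SE 0.16, adjusted p = 9.58e-05) and 0.97 in WT (SE 0.16, adjusted p = 0.00102) by edgeR with Benjamini-Hochberg adjustment.

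Nfat5 (ENSMUSG00000003847, chromosome 8, 107293470 to 107379517, plus strand) measured 222, 196 and 236 CPM in KO with curdlan, against 149, 133 and 154 CPM in KO without it. In WT it measured 165, 167 and 187 CPM with curdlan, against 111, 120.5 and 123 CPM without it. The groups were apart in each genotype, with log2 fold changes of 0.59 in KO (adjusted p = 0.00048) and 0.55 in WT (adjusted p = 0.0009, both by edgeR with Benjamini-Hochberg adjustment). Nfatc2 (ENSMUSG00000027544, chromosome 2, 168476410 to 168601657, minus strand), which encodes NFAT1, went the other way. It measured 20.01, 15.7 and 15.1 CPM in KO with curdlan, against 32.2, 34.3 and 25.3 CPM in KO without it. In WT it measured 11.9, 13.8 and 11.5 CPM with curdlan, against 19.7, 22.5 and 19.3 CPM without it. Again the groups did not overlap, and the log2 fold change was -0.85 in KO (adjusted p = 0.000687) and -0.72 in WT (adjusted p = 0.00258, edgeR with Benjamini-Hochberg adjustment).

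Nfatc3 (ENSMUSG00000031902, chromosome 8, 106058840 to 106130537, plus strand), which encodes NFAT4, fell in KO, at 47.4, 39.8 and 47.3 CPM with curdlan against 67.4, 58.5 and 59.6 CPM without it (log2 fold change -0.46, adjusted p = 0.00641, edgeR with Benjamini-Hochberg adjustment). In WT it stood at 60.8, 68.1 and 62.0 CPM with curdlan and 58.1, 74.0 and 73.2 CPM without it, and the groups overlapped (log2 fold change -0.10, adjusted p = 0.524). The difference between the genotypes' responses was -0.36 and did not pass (adjusted p = 0.153, edgeR with Benjamini-Hochberg adjustment). Some Nfatc3 exon bases overlap Esrp2 on the other strand, a splicing regulator gene with 150 reads over all 12 libraries.

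No calcineurin gene changed past the threshold with curdlan. Ppp3ca, the gene of the alpha catalytic subunit, had log2 fold changes of -0.01 in KO and 0.04 in WT. Ppp3cb, the gene of the beta catalytic subunit, had 0.00 in KO and -0.07 in WT. Ppp3cc, the gene of the gamma catalytic subunit, had -0.19 in KO and -0.06 in WT. Ppp3r1, the gene of the regulatory subunit, had -0.20 in KO (SE 0.07, adjusted p = 0.0604) and 0.05 in WT (adjusted p = 0.653, edgeR with Benjamini-Hochberg adjustment). Ppp3r1 libraries of KO with curdlan, at 157, 163 and 176 CPM, all lay below those of KO without it, at 189, 182 and 199 CPM. The KO value of Ppp3r1 passed without WT curdlan 1 (adjusted p = 0.044) or KO curdlan 5 (adjusted p = 0.0380), and in DESeq2 (adjusted p = 0.0275). When libraries were scaled by size alone, all 4 calcineurin genes passed as lower in KO (Ppp3ca -0.20, Ppp3cb -0.20, Ppp3cc -0.39 and Ppp3r1 -0.40) and Ppp3cb in WT (-0.20), beside medians over all genes of -0.199 and -0.167 under that scaling.

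By count, 6 of the 10 genes passed in KO, 4 higher and 2 lower with curdlan, where 28.6% of all tested genes passed (14.0% higher, 14.6% lower). In WT 5 passed, 4 higher and 1 lower, where 19.8% of all tested genes passed (11.4% higher, 8.4% lower). When libraries were scaled by size alone, the share of all calls that were higher was 17.9% in KO and 25.1% in WT, against 49.0% and 57.6% here, and with upper-quartile scaling it was 46.3% in WT. In CPM, 7 of the 10 genes did not overlap between states in KO, where 38.1% of all genes did not, and 6 of 10 in WT, where 44.5% did not. The median log2 fold change of the 10 genes was 0.00 in KO and 0.05 in WT, against 0.00 and -0.03 over all tested genes.

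**Figure D2:**
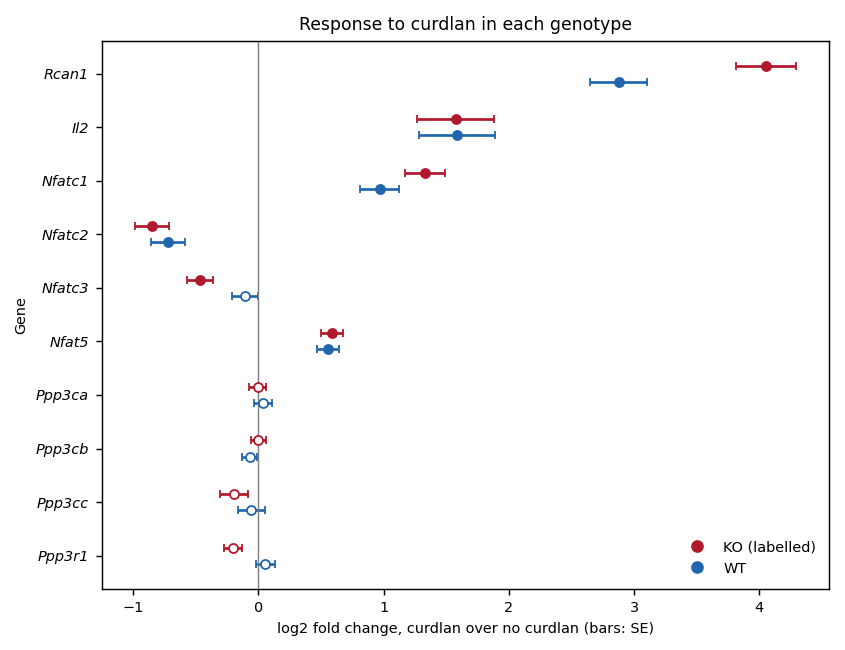
Log2 fold change of curdlan over no curdlan (horizontal axis) for each gene, KO above WT, with bars of 1 SE. Filled points passed an adjusted p of 0.05, and Rcan1 stands at 4.06 in KO and 2.88 in WT while the 4 calcineurin genes lie between -0.20 and 0.05.

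A test of the difference between the genotypes' responses passed for Rcan1 alone, where 5.21% of all tested genes passed (1.61% with a larger response in KO, 3.6% with a smaller one). Of all calls 30.8% were larger in KO, and 15.7% with scaling by library size alone or 42.0% by upper quartile. The Rcan1 response was larger in KO by 1.18 on the log2 scale (SE 0.30, adjusted p = 0.0457, edgeR with Benjamini-Hochberg adjustment). The call was close to the threshold. The KO library with the highest Rcan1 level, number 5 with curdlan, raised the value, which was 0.74 without it. The adjusted p ran from 0.00931 to 0.116 when each of the 12 libraries was left out in turn. The call was kept without any 1 of the 3 KO curdlan libraries and was lost without any 1 of the other 9. With library number as a block, the difference was 1.32 (adjusted p = 0.000567, edgeR with Benjamini-Hochberg adjustment). The blocked KO response rests on numbers 2 and 5 alone, the KO numbers present in both states. It thus keeps KO curdlan 5 and leaves out KO curdlan 4, the lowest of that group for both Rcan1 and Nfatc1. In that blocked fit Nfatc1 also passed, with a difference of 0.60 (adjusted p = 0.00189), where the fit without the block gave 0.36 (adjusted p = 0.328). For the other 8 genes the difference lay between -0.36 and 0.07 and did not pass in either fit.

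Without curdlan, Rcan1 and Il2 overlapped between genotypes, and 5 of the 10 genes differed, a share near the 44.4% of all tested genes that passed. For KO over WT the log2 fold change was 0.15 for Rcan1 (SE 0.22, adjusted p = 0.628) and 0.13 for Il2 (SE 0.32, adjusted p = 0.786). Ppp3ca (ENSMUSG00000028161, chromosome 3, 136670124 to 136937727, plus strand) measured 133, 134.5 and 127 CPM in KO libraries 1, 2 and 5, against 92.5, 93.7 and 95.7 CPM in WT libraries 1, 2 and 4. Ppp3r1 (ENSMUSG00000033953, chromosome 11, 17159263 to 17200375, plus strand) measured 189, 182 and 199 CPM in KO, against 125, 125 and 128 CPM in WT. Both were apart between genotypes, with log2 fold changes of 0.48 for Ppp3ca (SE 0.07, adjusted p = 0.000135) and 0.59 for Ppp3r1 (SE 0.07, adjusted p = 5.04e-05, edgeR with Benjamini-Hochberg adjustment). Ppp3r1 shares exon bases with Wdr92 on the same strand, a gene with 74429 reads over all libraries, so some reads could belong to either.

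Ppp3cc (ENSMUSG00000022092, chromosome 14, 70217865 to 70289471, minus strand) went the other way, at 6.97, 7.29 and 5.75 CPM in KO against 9.24, 9.61 and 9.26 CPM in WT (log2 fold change -0.49, adjusted p = 0.00297, edgeR with Benjamini-Hochberg adjustment). An antisense gene that overlaps its exons, Gm49417, was not analysed here. Ppp3cb (ENSMUSG00000021816, chromosome 14, 20499364 to 20546573, minus strand) measured 48.7, 51.1 and 51.5 CPM in KO, against 49.0, 49.3 and 51.6 CPM in WT. Its groups overlapped, with a log2 fold change of 0.01 and an interval of 2 SE on each side from -0.11 to 0.14. When libraries were scaled by size alone, the value became -0.17 and passed, beside a median of -0.19 over all genes under that scaling.

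Of the NFAT genes, Nfatc2 had a log2 fold change of 0.58 in unstimulated KO (SE 0.13, adjusted p = 0.00359) and Nfat5 one of 0.30 (SE 0.09, adjusted p = 0.0154, edgeR with Benjamini-Hochberg adjustment). Both were higher in KO, with no overlap. The Nfat5 call was lost without WT unstimulated 1 (adjusted p = 0.0604) or KO unstimulated 5 (adjusted p = 0.0578) and by library size alone (0.12). Nfatc1 lay higher in all 3 KO libraries, by 0.31, and did not pass (SE 0.16, adjusted p = 0.129). It passed in a fit of these 2 groups alone (adjusted p = 0.0103) and without KO curdlan 4 (adjusted p = 0.0231). Nfatc3 overlapped, at -0.15 (adjusted p = 0.285). Of the 5 genes that passed, 4 were higher and 1 lower in KO, against 21.1% higher and 23.3% lower over all tested genes. In CPM 6 of 10 did not overlap, as did 56.1% of all genes.

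With curdlan, 8 of the 10 genes differed between the genotypes, 6 higher and 2 lower in KO, where 51.4% of all tested genes passed (24.7% higher, 26.8% lower). In CPM 7 of 10 did not overlap, as did 56.9% of all genes. By library size alone, 23.7% of all calls with curdlan and 26.4% without it were higher in KO, against 48.0% and 47.5% here. Rcan1 was higher in KO by 1.33 on the log2 scale (SE 0.21, adjusted p = 0.000261, edgeR with Benjamini-Hochberg adjustment), all 3 KO libraries lying above all WT libraries. Without KO curdlan 5 the value was 0.92 and still passed. Nfatc1 was higher by 0.67 (adjusted p = 0.00336), although KO library 4, at 109 CPM, lay below WT library 4, at 111 CPM. Nfatc3 was lower by a log2 fold change of -0.51 (adjusted p = 0.00162), with no overlap.

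The genes that already differed without curdlan differed in the same direction with it. Ppp3ca measured 129, 143 and 121 CPM in KO libraries 2, 4 and 5 with curdlan, against 101, 94.8 and 93.3 CPM in WT libraries 1, 2 and 4 with curdlan (log2 fold change 0.44, adjusted p = 0.000243, edgeR with Benjamini-Hochberg adjustment). Ppp3cc measured 6.29, 5.89 and 5.26 CPM in KO, against 8.84, 10.1 and 8.16 CPM in WT (log2 fold change -0.63, adjusted p = 0.000558). Neither gene overlapped between the genotypes. Ppp3r1 had 0.33 (adjusted p = 0.00272), Nfat5 had 0.33 (adjusted p = 0.0073) and Nfatc2 had 0.45 (adjusted p = 0.0153, edgeR with Benjamini-Hochberg adjustment). All 3 calls were lost by library size alone (0.09, 0.09 and 0.20). The Nfatc2 call was also lost without WT curdlan 4 (adjusted p = 0.0586) or KO curdlan 2 (adjusted p = 0.0747). Il2, at 0.12 with an interval of 2 SE on each side from -0.45 to 0.69, and Ppp3cb, at 0.08, overlapped between genotypes. These contrasts share libraries with those above. The median of the 10 genes was 0.33 with curdlan and 0.22 without, against 0.01 and -0.01 over all tested genes.

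**Figure D3:**
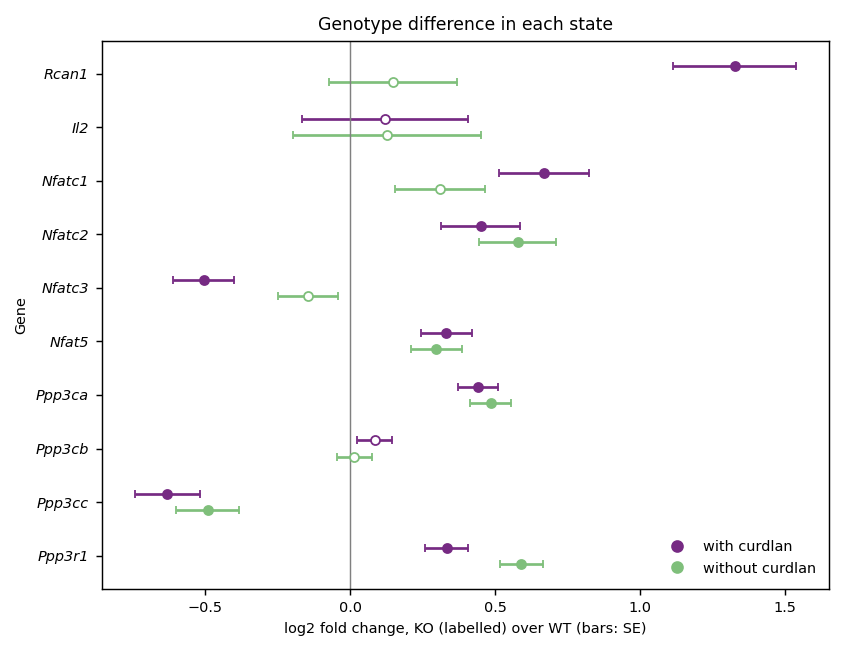
Log2 fold change of KO over WT (horizontal axis) for each gene, with curdlan above without curdlan, with bars of 1 SE. Filled points passed an adjusted p of 0.05, and Rcan1 stands at 1.33 with curdlan and 0.15 without, while Ppp3cc lies at -0.63 and -0.49.

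To compare levels between genes, CPM was divided by the length of each gene's merged exons in kb. On that scale Rcan1 held the first place in KO with curdlan, at 69.0 ± 30 CPM per kb (SD, n = 3), where its range overlapped that of Ppp3r1, at 51.2 ± 2.9. It came second in WT with curdlan, at 27.5 ± 1.7 CPM per kb, below Ppp3r1 at 40.7 ± 3.6. Without curdlan it came seventh, at 4.14 ± 0.27 CPM per kb in KO and 3.74 ± 0.32 in WT, in both cases between the Ppp3cb and Nfatc3 pair above it and the lower genes. Il2 was last without curdlan, at 1.48 ± 0.17 CPM per kb in KO and 1.36 ± 0.24 in WT. With curdlan it lay at 4.39 ± 1.5 CPM per kb in KO and 4.06 ± 1.8 in WT, where its range overlapped those of its neighbours Ppp3cb and Nfatc3 in KO and Ppp3cb and Ppp3cc in WT.

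The makeup of the NFAT family changed with curdlan. Nfatc1 held 53.5 ± 4.5% of the family's summed CPM per kb in KO with curdlan, 33.5 ± 0.48% in KO without, 44.2 ± 2.8% in WT with curdlan and 31.5 ± 0.94% in WT without (SD, n = 3). Nfatc2 held 4.33 ± 0.84%, 11.99 ± 1.9%, 4.10 ± 0.62% and 9.37 ± 0.84% in the same order, and Nfatc3 10.3 ± 0.89%, 21.8 ± 0.63%, 18.9 ± 2.0% and 28.1 ± 1.6%. The Nfat5 share was 31.9 ± 3.0%, 32.7 ± 2.4%, 32.7 ± 0.31% and 31.1 ± 0.85% in that order. The ranges of Nfatc1, Nfatc2 and Nfatc3 shares with and without curdlan did not overlap in either genotype. Among the catalytic subunits the split went by genotype: Ppp3ca held 63.0 ± 0.91% in KO with curdlan, 62.3 ± 0.52% in KO without, 53.4 ± 0.99% in WT with curdlan and 51.7 ± 0.063% in WT without. Ppp3cc held 9.38 ± 0.79%, 10.6 ± 1.0%, 16.7 ± 1.6% and 17.2 ± 0.49% in that order. These shares are a description, with no test, and because they sum to 100% a change in 1 gene moves the others.

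**Figure D4:**
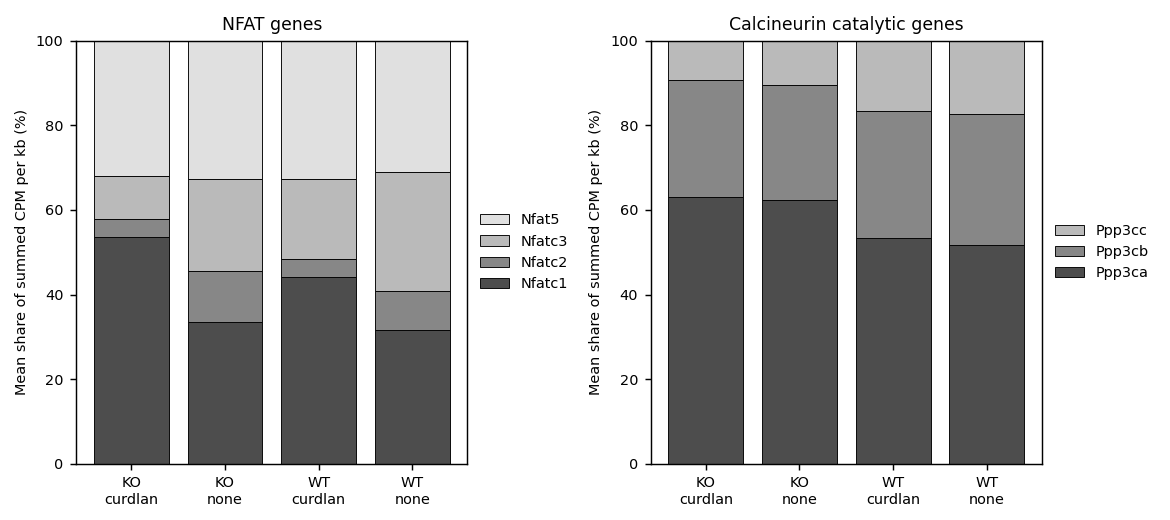
Mean share of each gene in the summed CPM per kb of its family (vertical axis, in percent, from 0 to 100) in the 4 groups, for the 4 NFAT genes on the left and the 3 calcineurin catalytic genes on the right. Nfatc1 takes 53.5% in KO with curdlan against 33.5% in KO without, and Ppp3cc takes 16.7% to 17.2% in WT, above 9.38% to 10.6% in KO.

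The genes most like Rcan1 over the 12 libraries, by Pearson r of log2 CPM among 11517 genes, were Plk3 (0.992), Ptpn12 (0.990), Chka (0.989), M6pr (0.988) and Ahcyl1 (0.986). Plk3, which encodes a polo-like kinase, averaged 349 CPM in KO with curdlan, 37.9 in KO without, 184 in WT with curdlan and 29.1 in WT without. For Il2 they included Zdhhc2 (0.973), Zfp213 (0.948), Dot1l (0.947) and Dnajc3 (0.946). Dot1l, which encodes a histone H3 methyltransferase, averaged 148, 59.1, 155 and 52.4 CPM in the same order of groups. The libraries form 4 groups and share the curdlan step, so these values describe likeness of pattern and carry no p.

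Around the 10 genes lies the calcium route that leads from Dectin-1 to calcineurin. Of its 17 genes, 2 rose and 6 fell with curdlan in KO (14.0% and 14.6% of all tested genes), and 3 rose and 4 fell in WT (11.4% and 8.4%). The 6 that fell in KO became 1 without KO unstimulated 1 or in a fit of these 2 groups alone, and 11 by library size alone. In WT 2 rose and 2 fell without WT curdlan 4 or WT unstimulated 1. For KO over WT, 4 were higher and 7 lower without curdlan (21.1% and 23.3% of all genes). With curdlan 3 were higher and 6 lower (24.7% and 26.8%). Under a block that joins KO and WT libraries by number alone, the counts with curdlan became 5 and 5. Orai2, which encodes a store-operated calcium channel, averaged 166 ± 8.1 CPM in KO without curdlan, against 53.9 ± 4.7 in WT without it (SD, n = 3; log2 fold change 1.62, adjusted p = 1.94e-08). With curdlan it averaged 172 ± 4.9 CPM in KO and 93.3 ± 4.4 in WT, so that it rose in WT by 0.79 and its response was smaller in KO (difference -0.74, adjusted p = 0.00477, edgeR with Benjamini-Hochberg adjustment). Its relative Orai1 was lower in unstimulated KO, at 36.0 ± 2.0 CPM against 61.2 ± 6.2 in WT (log2 fold change -0.77, adjusted p = 8.21e-05). Stim2, a calcium sensor of the endoplasmic reticulum, was higher in KO in both states (0.84 without curdlan and 1.05 with it). Itpr3, a channel that releases stored calcium, was lower in KO in both (-1.06 and -1.42).

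Syk, the kinase that Dectin-1 engages, rose with curdlan in WT, to 809 ± 18 CPM against 558 ± 25 without it (log2 fold change 0.54, adjusted p = 0.000276, edgeR with Benjamini-Hochberg adjustment). Its response was smaller in KO, by -0.57 (adjusted p = 0.0105). Clec7a, the gene of Dectin-1 itself, rose in KO to 927 ± 120 CPM with curdlan, against 585 ± 65 without it (0.66, adjusted p = 0.00124). The medians of the 17 genes were -0.11 in KO and -0.08 in WT for curdlan, and -0.21 without curdlan and -0.16 with it for KO over WT, beside medians over all genes from -0.03 to 0.01.

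Of 25 other regulators of calcineurin and NFAT, 4 rose and 4 fell with curdlan in KO (14.0% and 14.6% of all tested genes), and 1 rose in WT (11.4%). By library size alone these became 1 higher and 12 lower in KO, and 1 higher and 8 lower in WT. With library number as a block, 4 rose and 3 fell in WT, where 7275 of 18981 genes passed. Dyrk2, a kinase that phosphorylates NFAT, was the gene that rose in WT, to 45.0 ± 2.0 CPM with curdlan against 22.7 ± 1.2 without it (SD, n = 3; log2 fold change 0.99, adjusted p = 7.92e-05, edgeR with Benjamini-Hochberg adjustment). It was also higher in unstimulated KO, at 41.5 ± 2.5 CPM, than in unstimulated WT (0.87, adjusted p = 5.35e-05). Fkbp1a, the FK506-binding protein that blocks calcineurin when it carries the drug, rose in KO to 274 ± 14 CPM with curdlan, against 191 ± 9.2 without it (0.52), and its response differed between genotypes (0.56, adjusted p = 0.0105). Between genotypes, 7 of the 25 were higher and 7 lower in KO without curdlan, and 7 higher and 6 lower with it, where 44.4% and 51.4% of all genes passed. Both shares lie near those of all genes. By library size alone these became 3 higher and 13 lower, and 1 higher and 11 lower. The 7 lower without curdlan became 3 without WT unstimulated 2, and 4 without WT unstimulated 4, KO unstimulated 2 or KO unstimulated 5. The 7 higher with curdlan became 4 without WT curdlan 2 or KO curdlan 4. Rcan3, a relative of Rcan1, was lower in KO, by -0.49 without curdlan (adjusted p = 0.00167) and -0.59 with it (adjusted p = 0.000469, edgeR with Benjamini-Hochberg adjustment). Lrrk2, a kinase that acts on NFAT through a noncoding RNA complex, was lower in KO with curdlan by -0.91, and Xpo1, a nuclear export receptor, by -0.40. The list's medians lay between -0.07 and 0.07 in the 5 contrasts.

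Genes of nuclear partners of NFAT rose with curdlan in 10 of 18 cases and fell in 2 in KO (14.0% and 14.6% of all tested genes), and rose in 9 and fell in 1 in WT (11.4% and 8.4%). By library size alone 9 rose and 5 fell in KO. The AP-1 gene Fosb rose to 32.6 ± 7.7 CPM with curdlan in KO, against 8.84 ± 1.4 without it (log2 fold change 1.88, adjusted p = 1.13e-05). In WT it rose to 23.8 ± 2.1 CPM, against 6.36 ± 0.18 without it (1.90, adjusted p = 9.33e-06, edgeR with Benjamini-Hochberg adjustment). Fos rose by 1.53 in KO and 1.15 in WT, and Junb by 1.09 in WT. Without curdlan 11 of the 18 were higher and 1 lower in KO than in WT (21.1% and 23.3% of all genes), and with it 9 higher and 2 lower (24.7% and 26.8%). By library size alone these became 7 higher and 3 lower, and 6 higher and 5 lower. Without KO curdlan 2, the split with curdlan was 7 higher and 4 lower. Maf, a bZIP factor that binds the Il4 promoter in T cells, stood at 25.8 ± 1.9 CPM in unstimulated KO, against 3.16 ± 0.30 in unstimulated WT (3.03, adjusted p = 5.57e-08). Mef2a was higher there as well (0.98), and Batf3, a factor of conventional dendritic cells, was lower (-0.83, adjusted p = 0.000571). The list's median was 0.50 in KO and 0.46 in WT for curdlan, against 0.00 and -0.03 over all genes.

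Of 27 textbook NFAT target genes listed, 26 were in the table and 20 passed the filter on low counts. Genes too low to test are thus left out of the counts here. Of the 20, 16 rose and 0 fell with curdlan in KO (14.0% and 14.6% of all tested genes). In WT 14 rose and 0 fell (11.4% and 8.4%). The median log2 fold change of the 20 genes was 1.95 in KO and 2.11 in WT. The immediate-early gene Egr3 rose to 169.9 ± 62 CPM with curdlan in KO, against 8.19 ± 3.4 without it (4.36, adjusted p = 4.12e-06), and in WT to 128 ± 16 CPM, against 6.29 ± 0.76 without it (4.35, adjusted p = 3.28e-06). The orphan receptor gene Nr4a1 rose by 4.50 in KO and 4.28 in WT. The responses differed for 5 of the 20, 1 larger and 4 smaller in KO, where 1.61% and 3.6% of all genes passed. With library number as a block 4 were larger and 4 smaller, where 1059 and 1612 of the 18981 tested genes passed. Without KO curdlan 2 the split was 3 and 4, where 2837 of all genes passed. Il10, the gene of an anti-inflammatory cytokine, was the larger one (2.78, adjusted p = 0.0204), and no larger response passed without WT unstimulated 1, WT curdlan 2 or KO unstimulated 1. Il12b, the shared subunit of IL-12 and IL-23, had a difference of -3.37 (adjusted p = 0.00105), Ptgs2, the inducible cyclooxygenase, -2.64 (adjusted p = 0.000609) and Tnf -2.16 (adjusted p = 0.00195, edgeR with Benjamini-Hochberg adjustment). Il12b and Ptgs2 were already higher in unstimulated KO, at 189 ± 31 and 623 ± 100 CPM, than in unstimulated WT, at 12.2 ± 1.3 and 63.2 ± 8.0 CPM. Il10 was lower in unstimulated KO than in unstimulated WT (log2 fold change -2.97, adjusted p = 0.000324, edgeR with Benjamini-Hochberg adjustment). It averaged 0.18 ± 0.13 CPM in unstimulated KO and 4.78 ± 2.6 CPM in KO with curdlan. The larger Il10 response in KO thus started from a lower level, and does not by itself mean a higher level with curdlan. Between genotypes, 8 of the 20 were higher and 4 lower in KO without curdlan (21.1% and 23.3% of all tested genes), or 7 and 4 by library size alone. With curdlan 12 were higher and 2 lower in KO (24.7% and 26.8%). Smaller responses in KO thus do not mean lower levels in KO. Many of these target genes are also driven by other factors.

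The Il2 receptor chains, the cytokines that share them and their kinase and STAT genes form a list of 12, of which 2 rose and 1 fell in KO, and 3 rose and 0 fell in WT, where 28.6% and 19.8% of all tested genes passed. Both shares lie near those of all genes. Only 1 rose in WT without WT curdlan 4. With library number as a block 4 rose and 2 fell in KO, where 5625 of 18981 genes passed. In WT 5 rose and 2 fell with the block, where 7275 passed. For the difference of the responses, 0 of the 12 passed by edgeR, where 5.21% of all tested genes did. With the block 4 passed (1 larger and 3 smaller in KO), where 1059 and 1612 of 18981 genes did. Il7r, the IL-7 receptor gene, rose in WT to 124 ± 7.1 CPM with curdlan, against 69.1 ± 1.1 without it (0.84, adjusted p = 0.00075). Il2rg, the common gamma chain, rose in KO to 121 ± 13 CPM, against 90.8 ± 3.7 without it (0.41, adjusted p = 0.00171). Between genotypes, 6 were higher and 4 lower in KO without curdlan (21.1% and 23.3% of all tested genes). With curdlan 4 were higher and 2 lower (24.7% and 26.8%), or 3 and 5 by library size alone. Il2ra, the chain that gives high affinity for IL-2 and itself an NFAT target, averaged 21.4 ± 2.5 CPM in unstimulated KO, against 8.73 ± 2.0 in unstimulated WT (1.29, adjusted p = 0.000192). With curdlan it averaged 23.6 ± 6.4 CPM in KO, against 9.57 ± 1.2 in WT (1.30, adjusted p = 0.000169, edgeR with Benjamini-Hochberg adjustment). Stat5a, which acts below the IL-2 receptor, was higher in KO by 1.56 without curdlan and 0.89 with it.

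The authors' deposited table of KO against WT with curdlan put the log2 fold change of Rcan1 at 1.25 (SE 0.224, adjusted p = 2.86e-07), against 1.33 in the fit reported here. A second table of theirs is named an interaction, and there the authors' deposited table gave Rcan1 0.16 (adjusted p = 0.637). Its values for the 10 genes lay within 0.0110 log2 of the KO against WT contrast without curdlan. Over the 11298 genes whose mean log2 CPM reached 2, the median absolute distance from that contrast was 0.0109 with the same sign in 98.6%, against 0.395 and 43.3% for the difference of the curdlan responses.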

How the data were processed

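The 12 libraries were made from total RNA with an unstranded TruSeq kit, per the labels' protocols. The deposited counts are whole reads per gene. The submitters' processing notes name DESeq2 1.8.2, featureCounts 1.4.6, SAMtools 1.2, FastQC 0.11.1 and TopHat2 (there with version 2.4.2a). The build, annotation, strand setting and treatment of multiply mapped reads were not given in the sources used here. Beside the counts, the authors deposited 2 comparison tables with log2 fold changes, standard errors, p-values and adjusted p-values, and 18 columns of normalized values in them were not used. The labels write the curdlan dose in a unit that could not be checked, so it is not printed.

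Symbols come from the authors' files (33170 of 37991 genes), and coordinates and exon lengths from GENCODE mouse M21 on GRCm38. All 12 libraries were fitted with 4 group means in edgeR 4.0.16 under R 4.3.3 (filterByExpr by group, TMM scaling, quasi-likelihood F-test, two-sided), and p-values were adjusted by Benjamini-Hochberg over 18981 genes. CPM uses TMM-effective library sizes. At these depths 3 reads correspond to 0.0428 to 0.0829 CPM, a limit that covers counting error only. The procedure was tested on simulated counts with changes placed in WT with curdlan alone and scored for curdlan in WT alone. The other contrasts were not tested in this way. Chi-square per degree of freedom between replicates was 9.86 to 83.9, above counting noise, so all stayed separate.

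Library numbers were tested as pairs by correlating deviations from group means between states. The same-number correlations were 0.395, 0.239 and 0.129 in WT and 0.287 and 0.557 in KO. Different-number correlations ran from -0.290 to 0.0822 in WT and from -0.470 to 0.246 in KO, where the highest lay near the same-number value of 0.287. Deviations from a group mean cancel out for each gene, so the different-number values are not independent of the same-number ones. The numbers were therefore used as a block within each genotype in an alternative fit of the curdlan contrasts. For KO over WT a block was also fitted that joins KO and WT libraries of the same number. The fit reported here has no block, so its p-values leave any pairing out. KO numbers 1 and 4, present in 1 state each, drop out of the blocked curdlan estimates, so the KO response there rests on numbers 2 and 5. The authors' comparison table gives the 3 WT curdlan libraries other numbers (4, 1 and 2 for 1, 2 and 4), and a block with those was added after seeing the data. By those numbers the same-number correlations in WT were -0.246, 0.0822 and -0.158. KO and WT libraries of the same number share only a number (correlations -0.151 to 0.0822), so the block of the KO over WT contrasts rests on no known pairing.

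The members and lists were chosen with earlier results of these data known. Named genes are the 10 members, up to 4 genes per list and contrast by absolute log2 fold change among those past the threshold, and the 5 genes most like Rcan1 and Il2, of which 1 is not reported here. List genes that did not pass in each leave-one-out fit were passed over, except Il10. Alternatives were RLE, upper-quartile and library-size scaling, no filter, the groups of a contrast alone, DESeq2 1.42.0, the replicate block and leaving out each library.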

Additional observations from a re-analysis of the deposited data

Results flagged for a closer look

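Rcan1 responded to curdlan more strongly in KO than in WT, with a difference of the log2 fold changes of 1.18 (SE 0.30, adjusted p = 0.0457, edgeR with Benjamini-Hochberg adjustment). Rcan1 in KO with curdlan was higher than in WT with curdlan in 3 of 3 libraries, at 153 to 318 CPM against 78.8 to 88.8 CPM. The levels without curdlan overlapped, at 11.9 to 13.6 CPM in KO and 10.4 to 12.4 CPM in WT. Without KO curdlan 5, the difference was 0.74. The call was kept without any 1 of the 3 KO curdlan libraries and lost without any 1 of the other 9.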

How the results depend on the processing

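Over the scalings, filter, groups in the fit, DESeq2 and block, 324 values of the 10 genes kept their direction and side of the threshold, 9 gained the call, 4 lost it and 23 turned sign. With each library left out, 562 kept both, 3 gained the call, 13 lost it and 22 turned sign. Scaling by library size alone shifted the median of all genes to -0.199 (curdlan in KO), -0.167 (curdlan in WT), -0.191 (KO over WT without curdlan) and -0.236 (with it). Under it, 10 of the 10 genes passed for curdlan in KO, as did 7398 of the 18981 tested genes (1326 higher and 6072 lower).

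The difference of the responses passed for 2 genes with the replicate block by either numbering, and for 0 to 1 with a library left out. It passed in 989 of all genes, in 2204 by DESeq2, in 2671 with the block and in 366 to 2837 with a library left out. Curdlan in WT passed in 3759, in 6122 by library size alone, in 7275 with the block and in 2170 without WT curdlan 4. Curdlan in KO passed in 5425, in 3142 in its groups alone and in 3490 to 6074 with a library left out. The block changed no other call of the 10 genes.

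The values that turned sign had not passed in the fit reported. By library size alone they were Rcan1 (-0.033) and Il2 (-0.054) for KO over WT without curdlan, Il2 with it (-0.12), Nfat5 for the difference of responses (-0.031), Ppp3ca (-0.096) and Ppp3r1 (-0.079) for curdlan in WT, and Ppp3cb for curdlan in KO (-0.20) and KO over WT without (-0.17) and with curdlan (-0.16), and these 3 of Ppp3cb then passed, beside the 9 gained calls above. By upper quartile they were Il2 (0.036) and Ppp3ca (0.0019) for the difference, Ppp3ca for curdlan in WT (-0.0018) and in KO (0.00012), and Ppp3cb for KO over WT without curdlan (-0.019). With the block within each genotype they were Ppp3cb for curdlan in KO (-0.070) and, for the difference, Il2 (0.094, and 0.12 by the authors' numbers) and Ppp3cb (-0.00032 and -0.00014). With KO and WT libraries joined by number, Rcan1 turned sign for KO over WT without curdlan (-0.087), although such libraries share only a number. Ppp3cb for curdlan in KO was also -0.00019 by RLE, -0.015 without the filter and -0.0056 by DESeq2. With a library left out, Il2 ranged from -0.34 to 0.40 (difference) and -0.21 to 0.53 (KO over WT with curdlan), Nfat5 from -0.062 to 0.10 (difference), Ppp3ca from -0.076 to 0.039 and Ppp3cb from -0.047 to 0.026 (curdlan in KO), Ppp3cb from -0.0025 to 0.047 (KO over WT without curdlan), and Ppp3cc from -0.14 to 0.012 and Ppp3r1 from -0.019 to 0.11 (curdlan in WT). The cause of these shifts was not tested. Il2, with 62 to 362 reads a library, had the widest intervals.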
